A study of Homo sapiens with 18 samples.

Results

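Epithelial identity genes are described here by the open chromatin at 10 loci, those of CDH1, EPCAM, ESRP1, ESRP2, GRHL2, OVOL1, ELF3, CLDN3, CLDN4 and CLDN7. The measure was ATAC-seq, in which the transposase Tn5 cuts accessible DNA, in windows of the genome build hg19. Members were all windows of the deposited table that overlap the annotated span of a member gene (GENCODE on GRCh37) extended by 10 kb on each side. They came to 80 of the 89428 windows of the table. The extended spans cover 735 windows of the tiling grid, of which these 80 (10.9%) were deposited. Of the 80, 26 were promoter windows of a member, 8 were promoter windows of another gene within the span, and 46 were distal. A promoter window overlaps the stretch from 1 kb before to 100 bp after the start of a protein-coding transcript.

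The 18 libraries came from 6 established ovarian cancer cell lines grown in the same medium without drug treatment, with 3 replicate libraries each. A2780 and CP70 are labelled as endometrial/ovarian, A2780 as platinum-sensitive and CP70, a derivative selected in culture, as resistant. PEA1 (sensitive) and PEA2 (resistant) came from the ascites of 1 patient with high-grade serous ovarian cancer, before platinum therapy and after relapse. PEO1 (sensitive) and PEO4 (resistant) also came from 1 patient, before and after resistance developed clinically, and PEO1 was taken after platinum had been given. Each condition is thus represented by 1 cell line per patient or parent line. The labels do not say whether replicates were separate cultures, so the p-values measure the spread between these libraries, which may be technical. Library totals ran from 8963079 reads in PEO1 replicate 3 to 60435027 in A2780 replicate 3, and no replicates held identical values. The share of reads inside the table's windows was lowest in A2780 (8.38 to 10.04%), followed by CP70 (11.83 to 15.57%), PEA1 (12.85 to 16.84%) and PEA2 (17.06 to 20.71%), and it was far higher in PEO4 (32.87 to 35.89%) and PEO1 (38.93 to 40.83%). Values in FPKM (reads per kb of window, scaled to the total reads of the library) carry these differences, so counts of windows are read beside those of all windows. Levels and steps between lines at single genes are of deposited values unless stated. Over all windows the median log2 step was 0.30 from PEA1 to PEA2, 0.94 from PEA2 to PEO1, 0.60 from PEA2 to PEO4 and 1.52 from CP70 to PEO1.

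Epithelial cells hold together through E-cadherin, encoded by CDH1, which joins neighbouring cells at adherens junctions, and through claudins, which seal tight junctions. EPCAM is a cell-surface adhesion protein of most epithelia and carcinomas. The splicing factors ESRP1 and ESRP2 set epithelial splice forms, and the transcription factors GRHL2, OVOL1 and ELF3 drive or protect the epithelial state. Repressors of the ZEB and SNAI families bind E-boxes with the core CACCTG and silence several of these genes during epithelial-mesenchymal transition. In ovarian carcinoma lines the programme ranges from strongly epithelial to mesenchymal.

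The CACCTG sites are shown as matches to the core that these repressors bind, and binding or repression at them was not tested. In the 250 bases before the canonical start, CACCTG on either strand was present in 7 of the 10 members (70.0%) and in 17.4% of the 20161 promoters of all protein-coding genes with 250 bases of sequence. The members were chosen for their function and 10 promoters are few, so the shares are a description. CDH1 held 2 sites, EPCAM 3, ESRP1 2, ESRP2 1, GRHL2 1, ELF3 1 and CLDN7 4, and none was found in OVOL1, CLDN3 or CLDN4 in this stretch.

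Sites of 4 of these promoters are printed 5′ to 3′ with 10 bases on each side, on the gene's strand of GRCh37 and with the motif in capitals (CAGGTG where it is read from the other strand). The numbers after the names give the first base of the motif, with -1 as the base before the start of the transcript. The fourth CLDN7 site lies nearer the start and is not printed.
EPCAM site at -223, chr2:47596217-47596242: ggagacgaagCACCTGgggcggggcg
EPCAM site at -187, chr2:47596253-47596278: cgcgggcccaCACCTGtggagagggc
EPCAM site at -28, chr2:47596412-47596437: ccaggtcgggCAGGTGtgcgctccgc
ESRP2 site at -38, chr16:68270053-68270078: agccgggccgCAGGTGccgcccccga
ELF3 site at -120, chr1:201979585-201979610: atatgcaaatCACCTGgggccaggag
CLDN7 site at -174, chr17:7165956-7165981: tcttcctcctCACCTGggcaaggagg
CLDN7 site at -135, chr17:7165917-7165942: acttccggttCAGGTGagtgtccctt
CLDN7 site at -20, chr17:7165802-7165827: tacatatactCAGGTGcgccccacct

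The grainyhead-like motif AACCNGTT, the element read by GRHL2 and its relatives, was searched for in the same stretches on both strands. It was present in 1 of the 10 members (10.0%), OVOL1, and in 1.31% of all promoters. The CLDN3 promoter, chr7:73184601-73184850, is printed whole as one in which neither motif was found.
CLDN3 promoter: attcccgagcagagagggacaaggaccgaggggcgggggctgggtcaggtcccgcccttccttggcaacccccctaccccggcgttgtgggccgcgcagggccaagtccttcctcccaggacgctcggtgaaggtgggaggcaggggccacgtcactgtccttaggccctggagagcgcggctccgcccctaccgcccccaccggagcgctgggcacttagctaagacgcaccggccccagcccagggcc

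Over whole windows of 1001 bp, CACCTG was present in 24 of the 26 member promoter windows (92.3%, against 58.7% of all 25376 promoter windows) and in 35 of the 46 distal ones (76.1%, against 63.3% of 64052). AACCNGTT was present in 3 member promoter windows (11.5%, against 5.61%) and 5 distal ones (10.9%, against 7.28%). The median GC content was 59.9% in member promoter windows and 59.1% in all promoter windows, and 52.9% against 47.6% in distal windows.

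The first comparison asked how open the start of each member was in each line. The start-site window is the window that holds the start of the canonical transcript, and all 10 members had one in the table. Over the 10, from A2780 through CP70, PEA1, PEA2 and PEO1 to PEO4, the medians of the line means were 0.776, 1.06, 1.09, 2.35, 8.72 and 11.1 FPKM. All 12769 start-site windows of the table had medians of 2.03, 3.14, 3.18, 2.61, 7.27 and 7.17 FPKM in the same order. The members' median was thus 0.382, 0.338 and 0.343 times that of all start sites in A2780, CP70 and PEA1, 0.900 times in PEA2, and 1.20 and 1.55 times in PEO1 and PEO4. The plot of start-site levels gives every library.

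**Figure D1:**
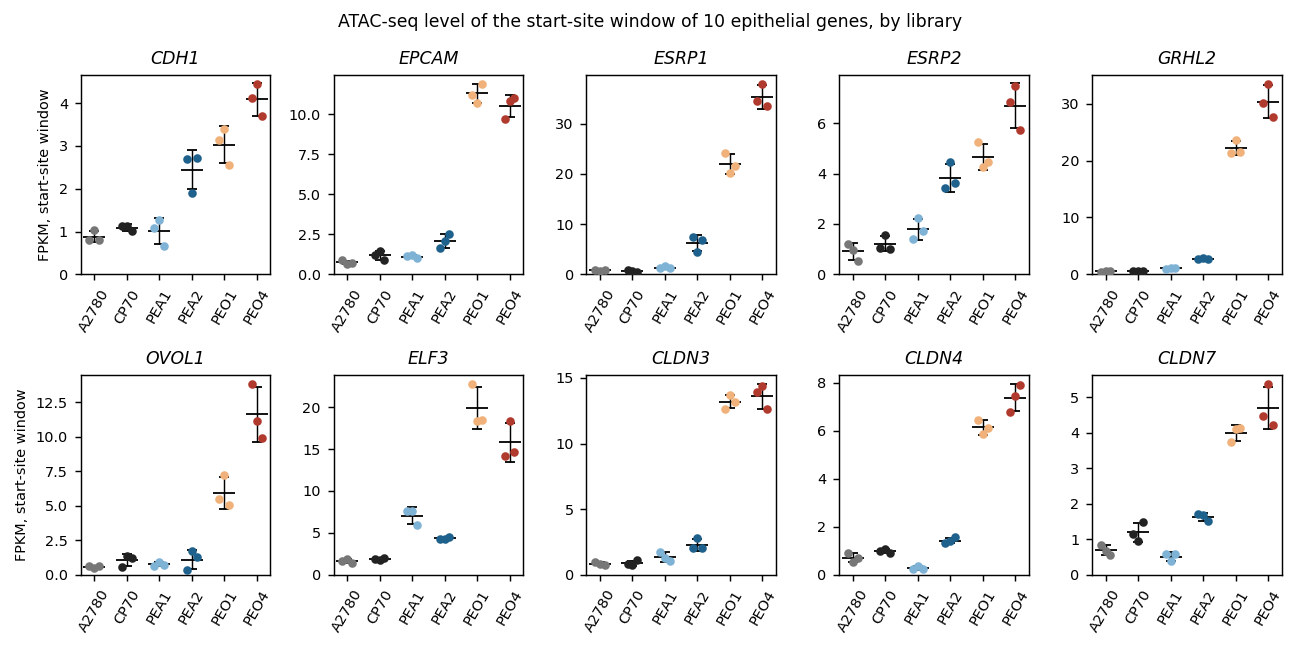
Level in FPKM of the start-site window of each of the 10 members in the 3 libraries of each line (points), with the line mean and SD (bars, n = 3), on linear axes from 0. PEO1 or PEO4 holds the highest mean at all 10 genes, and A2780, CP70 and PEA1 lie low except at ELF3, where PEA1 reaches 7.06 FPKM.

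CDH1 lies at chr16:68771195-68869440 on the plus strand. The CDH1 start-site window held 0.802, 1.04 and 0.81 FPKM in the 3 libraries of A2780 and 1.14, 1.14 and 1.01 in those of CP70. CDH1 was at 1.09, 1.28 and 0.671 FPKM in PEA1 and 2.69, 1.91 and 2.71 in PEA2. CDH1 was at 3.14, 3.4 and 2.56 FPKM in PEO1 and 4.13, 4.46 and 3.69 in PEO4. PEO4 lay above all other lines, and the 3 libraries of PEA2 overlapped with those of PEO1. In the order of means, A2780 (0.883 ± 0.133 FPKM, SD, n = 3), PEA1 (1.01 ± 0.31), CP70 (1.09 ± 0.0761), PEA2 (2.44 ± 0.457), PEO1 (3.03 ± 0.429) and PEO4 (4.09 ± 0.39), only the step from CP70 to PEA2 passed the test by limma in the fit over all 18 libraries (1.07 on the log2(FPKM + 0.1) scale, adjusted p = 5.00e-05). The median step from CP70 to PEA2 over all windows was 0.58. After median centring the CDH1 step was 0.09 and did not pass (adjusted p = 0.706, limma). Among all start-site windows of the same line, CDH1 ranked at percentile 45.8 in PEA2, 17.4 in PEO1 and 27.9 in PEO4.

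EPCAM lies at chr2:47572297-47614740 on the plus strand. The EPCAM start-site window held 0.872, 0.653 and 0.694 FPKM in the 3 libraries of A2780 and 1.21, 1.44 and 0.879 in those of CP70. EPCAM was at 1.12, 1.18 and 1.01 FPKM in PEA1 and 1.65, 2.08 and 2.53 in PEA2. EPCAM was at 11.2, 10.7 and 11.9 FPKM in PEO1 and 9.71, 10.8 and 11 in PEO4. The 6 PEO libraries lay above the other 12 without overlap. Line means were 11.3 ± 0.6 FPKM in PEO1 and 10.5 ± 0.708 in PEO4, a difference that did not pass the test (adjusted p = 0.706), against 2.09 ± 0.44 in PEA2 (SD, n = 3 each). The step from PEA2 to PEO4 was 2.30 on the log2 scale (adjusted p = 3.26e-14, limma).

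The 3 claudins were highest in the PEO lines, and CLDN4 and CLDN7 had their lowest means in PEA1. CLDN3 lies at chr7:73183327-73184600 (minus strand), CLDN4 at chr7:73213872-73247020 (plus) and CLDN7 at chr17:7163222-7167302 (minus). The CLDN3 start-site window held 0.994, 0.811 and 0.711 FPKM in the 3 libraries of A2780 and 0.833, 0.718 and 1.09 in those of CP70. CLDN3 was at 1.73, 1.28 and 1.01 FPKM in PEA1 and 2.03, 2.77 and 2 in PEA2. CLDN3 was at 12.6, 13.7 and 13.2 FPKM in PEO1 and 13.9, 14.4 and 12.6 in PEO4. The PEO libraries stood apart, with the step from PEA2 to PEO1 at 2.50 on the log2 scale (adjusted p = 2.62e-15). The CLDN4 start-site window held 0.889, 0.518 and 0.678 FPKM in the 3 libraries of A2780 and 0.985, 1.08 and 0.921 in those of CP70. CLDN4 was at 0.224, 0.374 and 0.24 FPKM in PEA1 and 1.32, 1.39 and 1.55 in PEA2. CLDN4 was at 6.47, 5.85 and 6.13 FPKM in PEO1 and 6.8, 7.44 and 7.92 in PEO4. PEA1 was the lowest line at CLDN4, and it lay below A2780 by 1.06 on the log2 scale (adjusted p = 8.81e-05). The CLDN7 start-site window held 0.837, 0.676 and 0.545 FPKM in the 3 libraries of A2780 and 1.14, 0.958 and 1.47 in those of CP70. CLDN7 was at 0.577, 0.374 and 0.575 FPKM in PEA1 and 1.7, 1.68 and 1.51 in PEA2. CLDN7 was at 3.74, 4.1 and 4.12 FPKM in PEO1 and 4.48, 5.38 and 4.23 in PEO4. The libraries of PEA1 and A2780 overlapped, and their difference did not pass as deposited (-0.37, adjusted p = 0.178, limma). It passed after median centring (-1.10, adjusted p = 8.25e-05, limma). At CLDN7 all 6 PEO libraries were again above all others as deposited, and the difference of PEO4 from PEO1 did not pass the test (0.22 on the log2 scale, adjusted p = 0.431). They were no longer all above once each library was divided by its median window. After median centring PEO1 differed from CP70 at CLDN7 by 0.02 and PEO4 by 0.58 (adjusted p = 0.934 and 0.0221, limma).

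Of the adhesion and splicing members, ESRP1 had the widest range of line means. ESRP1 lies at chr8:95653302-95719694 (plus) and ESRP2 at chr16:68262936-68272005 (minus). The ESRP1 start-site window held 0.872, 0.721 and 0.843 FPKM in the 3 libraries of A2780 and 0.758, 0.718 and 0.544 in those of CP70. ESRP1 was at 1.25, 1.56 and 1.2 FPKM in PEA1 and 7.36, 4.39 and 6.79 in PEA2. ESRP1 was at 24.1, 20.2 and 21.6 FPKM in PEO1 and 34.4, 37.9 and 33.5 in PEO4. As deposited, ESRP1 rose in steps from A2780 through PEA1, PEA2 and PEO1 to PEO4, and each of these 4 steps differed (log2 0.65, 2.10, 1.84 and 0.68, adjusted p = 0.00614, 9.79e-13, 1.39e-11 and 0.00406). The first step lay near the all-window median of 0.50. After median centring it was -0.08 and did not pass (adjusted p = 0.733, limma). The later steps were then 1.59, 1.16 and 1.02 (adjusted p = 5.20e-10, 2.92e-07 and 8.40e-06). Among the start-site windows of a line ESRP1 ranked at percentile 91.2 in PEA2, 93.0 in PEO1 and 98.7 in PEO4, and at or below 10.7 in A2780, CP70 and PEA1. The ESRP2 start-site window held 1.22, 0.969 and 0.545 FPKM in the 3 libraries of A2780 and 1.06, 1.56 and 1.01 in those of CP70. ESRP2 was at 1.41, 2.24 and 1.73 FPKM in PEA1 and 3.41, 4.45 and 3.64 in PEA2. ESRP2 was at 5.26, 4.28 and 4.46 FPKM in PEO1 and 6.86, 7.49 and 5.73 in PEO4. ESRP2, its close relative, spanned 2.8 on the log2 scale where ESRP1 spanned 5.52, and the libraries of PEA2 and PEO1 overlapped.

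GRHL2, a grainyhead-like factor that activates CDH1 and claudin genes, lies at chr8:102504667-102681954 on the plus strand. The GRHL2 start-site window held 0.401, 0.586 and 0.512 FPKM in the 3 libraries of A2780 and 0.606, 0.539 and 0.586 in those of CP70. GRHL2 was at 0.929, 1.18 and 1.1 FPKM in PEA1 and 2.64, 2.83 and 2.75 in PEA2. GRHL2 was at 21.4, 23.6 and 21.5 FPKM in PEO1 and 30.2, 33.5 and 27.6 in PEO4. Its range of 5.68 on the log2 scale was the widest of the 10 start sites. PEA2 was above PEA1 by 1.28 (adjusted p = 1.94e-07), PEO1 above PEA2 by 2.97 (adjusted p = 4.96e-19), and the step from PEO1 to PEO4 did not pass in this fit over all 18 libraries (0.45, adjusted p = 0.0503), though it passed in the fit of the PEO pair alone.

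OVOL1, a zinc-finger repressor of mesenchymal genes, lies at chr11:65554534-65564685 on the plus strand. The OVOL1 start-site window held 0.628, 0.496 and 0.595 FPKM in the 3 libraries of A2780 and 0.53, 1.38 and 1.17 in those of CP70. OVOL1 was at 0.609, 0.935 and 0.719 FPKM in PEA1 and 0.33, 1.68 and 1.24 in PEA2. OVOL1 was at 5.46, 7.24 and 5.02 FPKM in PEO1 and 13.8, 11.1 and 9.91 in PEO4. The 3 steps among the 4 lines outside the PEO pair did not pass the test, PEO1 lay above CP70 by 2.49 on the log2 scale (adjusted p = 7.06e-11), and PEO4 lay above PEO1 by 0.97 on the log2 scale (adjusted p = 0.00516).

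ELF3, an ETS factor of epithelial cells, lies at chr1:201977073-201986311 on the plus strand. The ELF3 start-site window held 1.64, 1.83 and 1.44 FPKM in the 3 libraries of A2780 and 1.89, 1.8 and 1.97 in those of CP70. ELF3 was at 7.63, 7.6 and 5.95 FPKM in PEA1 and 4.29, 4.22 and 4.48 in PEA2. ELF3 was at 22.8, 18.4 and 18.5 FPKM in PEO1 and 14.2, 18.4 and 14.7 in PEO4. ELF3 was the member that was open in PEA1, where it ranked at percentile 93.9 of start sites, and the only one of the 10 with a higher mean in PEA1 than in PEA2. Over all 10 members, 25 of the 50 steps between neighbouring lines differed at an adjusted p below 0.05, against 34% of such steps at all start-site windows. They were 2, 6, 7, 8 and 2 of 10 from the lowest step to the highest.

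**Figure D2:**
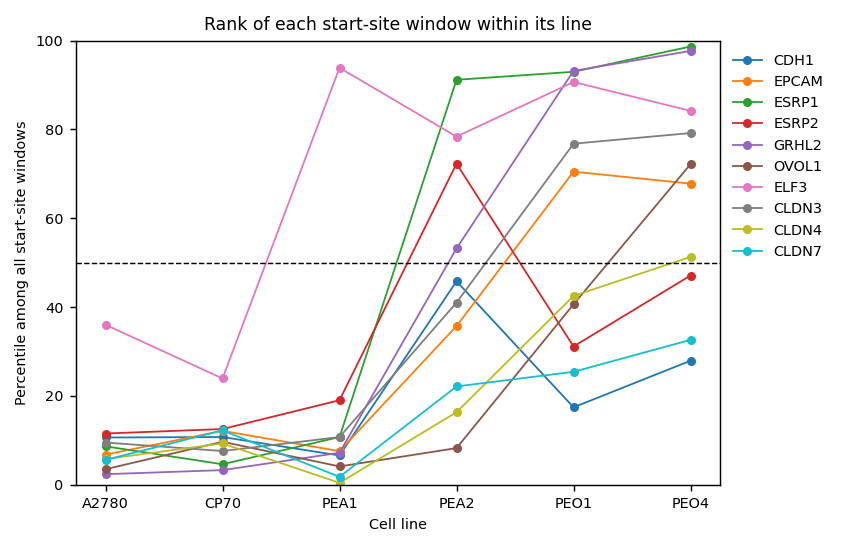
Percentile of each member's start-site window among all 12769 start-site windows of the same line (y axis, 0 to 100, mean of 3 libraries), by line, with 1 line of points per gene and the 50th percentile dashed. Apart from ELF3 the members lie at or below percentile 19 in A2780, CP70 and PEA1, and they spread from 17.4 (CDH1) to 93.2 (GRHL2) in PEO1.

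Whether the PEO lines stood apart was then read beside the rest of the table. All 6 PEO libraries lay above the other 12 at 8 of the 10 start-site windows, against 57.2% of all start-site windows of the table. CDH1 and ESRP2 were the members where they did not. Once each library was divided by its median window, the 6 PEO libraries still lay above at 7 of the 10, against 3.95% of all start sites. Among the 26 member promoter windows the counts were 23 as deposited (52% of all promoter windows) and 13 after division (3.67%), and among the 46 distal windows they were 26 (28.9%) and 10 (9.05%). At the 8 promoter windows of other genes in the same spans they were 4 and 0. A window needed more than 2 FPKM in at least 2 libraries to be in the table. The start-site windows of OVOL1, CLDN4 and CLDN7 met this through PEO libraries alone, as did several other promoter and distal windows. A higher level in the PEO lines was favoured there by the choice of windows. Counts of windows higher in the PEO lines are thus a description, here and below.

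Against A2780, the start-site window was higher in PEO1 at 10 of the 10 members and in PEO4 at 10, which was also so of 91.7% and 89.5% of all start sites. After median centring of the log2 values the counts were 7 in PEO1 (21.9% of all start sites) and 10 in PEO4 (37%). Against PEA2 they were 8 in PEO1 (82.1%) and 10 in PEO4 (78.7%) as deposited, and 8 (61.9%) and 8 (69.8%) after centring. As deposited, the members' counts are near the background, and after centring those against A2780 were above it.

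By the test of any difference between the 6 lines, 64 of the 80 windows were called, with an adjusted p below 0.001 and line means more than 2 apart on the log2 scale. They were 23 of 26 member promoter windows (62% of all promoter windows were called), 38 of 46 distal windows (80.8%) and 3 of 8 promoter windows of other genes. In all windows of the table the share was 75.5%, so the members' count is close to the background. PEO4 had the highest mean at 15 of the 26 member promoter windows (57.7%, against 40.0% of all promoter windows) and PEO1 at 11 (42.3%, against 46.7%). Among the 46 distal windows PEO4 was highest at 24 (52.2%, against 21.6% of all distal windows), PEO1 at 16 (34.8%, against 47.1%), PEA2 at 5 (10.9%, against 20.7%) and PEA1 at 1.

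Over the 26 member promoter windows, the 10 start-site windows among them, median line means were 0.809, 1.10, 1.08, 2.17, 6.09 and 6.0 FPKM from A2780 to PEO4, or 0.525, 0.464, 0.435, 0.995, 1.14 and 1.18 times the median of all promoter windows. The 46 distal windows had medians of 0.612, 0.673, 0.856, 1.20, 2.65 and 2.96 FPKM, or 1.21, 1.18, 0.987, 0.755, 1.11 and 1.66 times that of all distal windows. The member promoter windows of A2780, CP70 and PEA1 were thus below the median of their class, while their distal windows were above it or, in PEA1, close to it.

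The 5 distal windows with the widest range of line means lay at GRHL2, ESRP1 and EPCAM. The GRHL2 intron window centred 1.3 kb after the start held 15.4, 16.1 and 15.3 FPKM in PEO1 and 27.6, 29.4 and 26.5 in PEO4, and no library of the other lines exceeded 3.12. The window 1.8 kb before the start of ESRP1 held 14.4, 13.3 and 13.8 FPKM in PEO1, 22.2, 20.2 and 18.5 in PEO4, and 5.61, 3.99 and 4.48 in PEA2. The GRHL2 windows at 2.2 kb and 82.3 kb after the start were highest in PEO4, at 26.3 and 26.2 times their lowest line. The fifth was an EPCAM window, described with the PEA pair. An intron window 8.2 kb before the canonical start of CLDN4 and inside a longer form of the gene had the highest level of any CLDN4 window, at 16.1, 14.5 and 16.4 FPKM in PEO1 and 15.5, 16.2 and 14.2 in PEO4, and no other library exceeded 2.42. It was named after its values were seen.

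**Figure D3:**
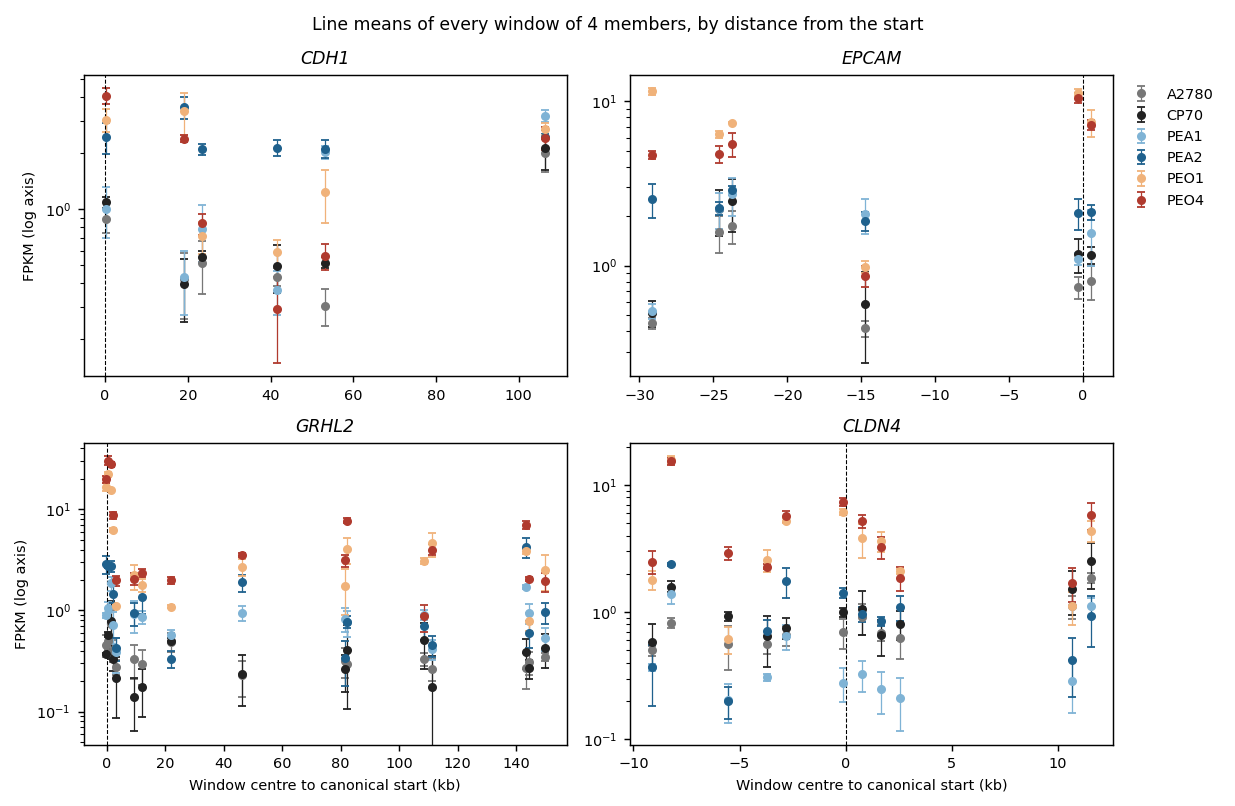
Mean of 3 libraries with SD in FPKM (log axis, bars that reach 0 are cut by the axis) of every deposited window of CDH1, EPCAM, GRHL2 and CLDN4, in the 6 lines, against the distance of the window's centre from the canonical start in kb (dashed line at 0). PEA2 stands with or above the PEO lines at 4 intron windows of CDH1, and the PEO lines stand above the rest near the starts of the other 3 genes.

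The second comparison set each resistant line against its sensitive partner. The test took windows whose mean over the 6 libraries of a pair exceeded 1 FPKM, and a window was called when the log2 fold change exceeded 2 in size with an adjusted p below 0.001 by limma. Over all windows tested, the median log2 fold change was 0.59 for CP70 against A2780, 0.31 for PEA2 against PEA1 and -0.30 for PEO4 against PEO1, and the classes of window differed. For CP70 the median was 0.59 over promoter and 0.58 over distal windows, whereas PEA2 had -0.17 over promoter and 0.70 over distal windows, and PEO4 had -0.06 and -0.48, so a change is read against its own class. A window low in one line passed the filter only if it was high in the other, and its direction was then fixed by the filter. Fold changes are of FPKM + 0.1 and understate the change of low windows. In bulk libraries a window open in fewer cells and one less open in every cell cannot be told apart. The median change of all windows tested in the 5 Mb bin of a member ran from 0.39 to 0.86 for CP70, from -0.55 to 0.20 for PEA2 and from -0.87 to 0.29 for PEO4, and the part of DNA copy number was not tested.

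**Figure D4:**
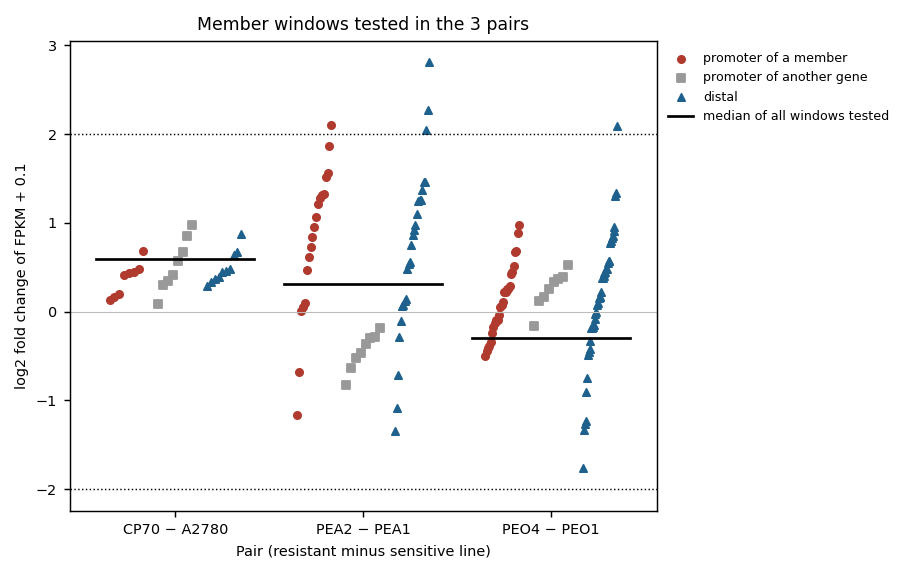
log2 fold change (resistant minus sensitive line, of FPKM + 0.1) of every member window tested in each of the 3 pairs, by class of window, with the median of all windows tested in that pair as a horizontal line and the size limit of 2 dotted. In the PEA pair the promoter windows of members reach 2.10 while those of other genes in the same spans all lie below 0.

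Few member windows were open enough in A2780 or CP70 to be compared. Of the 80 windows, 26 passed the filter and 0 were called by limma (0.428% of all windows were called higher and 0.369% lower) or by edgeR. At an unadjusted p under 0.05, 8 of the 26 were higher in CP70 and 0 lower. At an adjusted p below 0.05 the counts were 8 higher (30.8%, against 47.5% of all windows) and 0 lower (2.29%). Only 2 start-site windows passed the filter. ELF3 changed by 0.20 ± 0.253 (SE, adjusted p = 0.483) and ESRP2 by 0.41 ± 0.284 (adjusted p = 0.203), and neither passed the threshold (43.9% of start sites were higher and 1.48% lower).

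In PEA2 most epithelial start sites were more open than in PEA1. Of the 8 start-site windows tested, 7 were higher and 1 lower at an adjusted p below 0.05, whereas 17.7% of all start sites tested were higher and 35.7% lower. CLDN7 passed the filter through PEA2 alone, and of the 7 windows above 1 FPKM in both lines 6 were higher and 1 lower, against 15.7% and 35.1% of all such start sites. ESRP1 rose most, by 2.10 ± 0.229 (SE, adjusted p = 6.32e-19), a fold of 4.30. CLDN7 rose by 1.52 ± 0.292 (adjusted p = 6.43e-07), GRHL2 by 1.28 ± 0.241 (3.91e-07), CDH1 by 1.21 ± 0.246 (2.78e-06) and ESRP2 by 1.07 ± 0.23 (1.03e-05). EPCAM rose by 0.84 ± 0.248 (adjusted p = 0.00141) and CLDN3 by 0.73 ± 0.242 (0.00455), and both missed the threshold after median centring (0.47 and 0.36, adjusted p = 0.0553 and 0.129). ELF3 fell by 0.68 on the log2 scale (SE 0.229, adjusted p = 0.0055). That call was lost without PEA1 replicate 1 (-0.62, adjusted p = 0.0535), and the change was 0.00 once the median log2 level of the windows of its 5 Mb bin was replaced, in each library, by the median of the library. CLDN4 and OVOL1 were below the filter, and CLDN7 fell below it when any 1 library of PEA2 was left out, so its change has no value then. In all 3 libraries of PEA2, CLDN4 lay above the 3 of PEA1, at 1.32 to 1.55 against 0.224 to 0.374 FPKM. After median centring 5 of the 8 were higher and 1 lower (11.6% and 62.3% of all start sites), and by edgeR 6 and 1.

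Over all windows of the members, 53 were tested in the PEA pair. In PEA2, 28 were higher at an adjusted p below 0.05 (43% of all windows) and 8 lower (21.4%). Of the 19 member promoter windows tested 13 were higher and 2 lower (20.3% and 32.9% of all promoter windows), of the 26 distal ones 15 and 3 (55.3% and 15.1% of all distal windows), which is near the share of their class, and of the 8 promoter windows of other genes 0 and 3. By the stricter rule 4 were called higher (11.2% of all windows) and 0 lower (1.42%), 1 of them the ESRP1 start site. Without PEA2 replicate 1, 2 were called, and after median centring 1. In the lower direction 8 windows passed an unadjusted p under 0.05, and edgeR called 2 windows in all, neither of them lower.

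Over the 35 windows above 1 FPKM in both PEA1 and PEA2, 15 were higher (27.7% of all such windows) and 6 lower (23%), and over the 15 that passed through PEA2 alone 13 were higher, a direction the filter fixed.

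The other 3 called windows were distal, in CDH1 and EPCAM. All 3 were below 1 FPKM in PEA1 and passed the filter through PEA2 alone, so that they were higher in PEA2 is a description. In an intron of CDH1, 19 kb after the start (chr16:68789700-68790700), the window held 0.609, 0.405 and 0.288 FPKM in PEA1 and 3.68, 3.93 and 3.02 in PEA2. It rose by 2.81 ± 0.26 on the log2 scale (SE, adjusted p = 1.01e-25), and the 6 PEO libraries held 2.29 to 4.36 FPKM there. A second CDH1 intron window, 41.5 kb after the start (chr16:68812200-68813200), held 0.288, 0.343 and 0.479 FPKM in PEA1 and 2.20, 1.91 and 2.31 in PEA2 (2.27 ± 0.292, adjusted p = 7.50e-14). No library of another line exceeded 0.698 FPKM at this window, which is in the table only through PEA2, since a window needed more than 2 FPKM in at least 2 libraries to be there. The EPCAM window lay 29.2 kb before the canonical start and just upstream of a longer form of the gene (chr2:47566800-47567800). It held 0.545, 0.467 and 0.575 FPKM in PEA1, 3.08, 1.91 and 2.66 in PEA2, 11.7, 10.9 and 11.8 in PEO1 and 4.48, 4.66 and 5.03 in PEO4. PEA2 was higher than PEA1 by 2.05 ± 0.266 (adjusted p = 9.62e-14), and PEO4 was lower than PEO1 (log2 fold change -1.27 ± 0.127, adjusted p = 6.29e-11).

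In the PEO pair all 10 start-site windows were above 1 FPKM in both lines, and the largest change was 0.97 on the log2 scale. Of 10 tested, 5 were higher and 1 lower in PEO4 at an adjusted p below 0.05 (26.4% and 30.9% of all start sites tested). OVOL1 rose by 0.97 ± 0.139 (SE, adjusted p = 1.53e-07), ESRP1 by 0.68 ± 0.0928 (4.81e-08), ESRP2 by 0.51 ± 0.146 (0.00249), GRHL2 by 0.45 ± 0.0942 (7.20e-05) and CDH1 by 0.42 ± 0.171 (0.0275). In the fit over all 18 libraries, with its own spread, the same differences passed for OVOL1 and ESRP1 but not for ESRP2, GRHL2, CDH1 and ELF3 (adjusted p = 0.0563, 0.0503, 0.115 and 0.145), so these 4 calls depend on the fit. ELF3 was lower (log2 fold change -0.34 ± 0.11, adjusted p = 0.00732), a call lost without PEO1 replicate 1 or PEO4 replicate 1 (-0.24 and -0.26), and the CDH1 call was lost without PEO1 replicate 3 or PEO4 replicate 1 or 2 (0.31, 0.42 and 0.36). EPCAM (-0.10), CLDN3 (0.05), CLDN4 (0.26) and CLDN7 (0.22) did not pass the test. After median centring 9 of 10 were higher and 0 lower (51.9% and 15.6% of all start sites), with ELF3 at 0.01, and with quantile normalization 7 and 1. With the median of the 5 Mb bin replaced in the same way, EPCAM and ELF3 turned higher, CLDN3 and CLDN7 turned lower, and CDH1, ESRP2 and GRHL2 missed the threshold.

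Over all 76 member windows tested in the PEO pair, 24 were higher (21.9% of all windows) and 14 lower (45.8%) in PEO4. Of the 26 member promoter windows 8 were higher and 5 lower (24.8% and 32.3% of all promoter windows), and of the 42 distal ones 14 and 9 (20.5% and 52%). Only 1 was called, higher in PEO4 (2.72% of all windows), and 0 were called lower (5.78%). In the lower direction 14 passed an unadjusted p under 0.05, and edgeR called 1 window, which was higher. The called window lies in an intron of the longer form of CLDN4, 5.5 kb before the canonical start (chr7:73239300-73240300). It held 0.708, 0.698 and 0.446 FPKM in PEO1 and 3.02, 3.22 and 2.54 in PEO4, a change of 2.09 ± 0.266 (SE, adjusted p = 1.24e-08). The window is in the table and passed the filter through PEO4 alone, so that direction is a description. The call was lost without PEO1 replicate 3. PEA1 and PEA2 were at 0.144 to 0.28 FPKM at this window, and A2780 and CP70 at 0.406 to 0.985.

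The changes of the pairs were then set against each other. The difference between the changes in the PEA and PEO pairs was called at 6 of the 80 windows, against 27.8% of all windows. Between the A2780 and PEA pairs it was called at 3 (14.5%), and between the A2780 and PEO pairs at 1 (8.94%). These are 7.5%, 3.75% and 1.25% of the member windows, each below its background, and no test of that was run. At start sites the PEA change exceeded the PEO change by 1.42 ± 0.289 for ESRP1 (SE, adjusted p = 2.71e-05) and by 1.30 ± 0.328 for CLDN7 (adjusted p = 5.19e-04), which did not reach the size limit of 2. The gap was wider at CLDN4 and was not called either. There the fit over all 18 libraries gave 2.02 from PEA1 to PEA2 and 0.26 from PEO1 to PEO4 (adjusted p = 9.19e-11 and 0.349, limma). The CLDN4 window was below the filter of the PEA pair.

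Other genes of the epithelial programme, by their start-site windows, were read in the same way. Of 32 genes 29 had a start-site window in the table, and AP1M2, GRHL3 and CLDN6 did not. Between the 6 lines 25 of the 29 were called, against 63.8% of all start-site windows. The 6 PEO libraries lay above the other 12 at 18 of the 29, which is near the 57.2% of all start sites, and at 9 after division by the library median, against 3.95%. In the PEA pair 12 of 27 tested were higher and 3 lower in PEA2 (17.7% and 35.7% of all start sites), with a median log2 fold change of 0.44 (-0.23 over all start sites). Of the 12, 6 passed the filter through PEA2 alone, and of the 21 above 1 FPKM in both lines 6 were higher and 3 lower (15.7% and 35.1%). PRSS8, a membrane protease, rose by 3.33 (adjusted p = 2.89e-42) and PKP3, a desmosome protein, by 2.27 (7.29e-21). OVOL2, the relative of OVOL1, rose by 1.90 (2.62e-15), and occludin (OCLN), a tight-junction protein, by 1.89 (1.46e-14). Of these 4, PRSS8, PKP3 and OCLN were below 1 FPKM in PEA1 and passed the filter through PEA2 alone. SPINT2, a protease inhibitor, was lower in PEA2 (-1.10, adjusted p = 5.22e-06), as were CGN (-0.76, 0.0018) and PPL (-0.58, 0.0228). After median centring the counts in the PEA pair were 11 higher and 10 lower (11.6% and 62.3% of all start sites), and with edgeR 11 and 10, so the list was not of 1 direction there.

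In the A2780 pair 8 of 18 tested were higher and 0 lower, with a median of 0.60, which is near the background of 43.9% higher and 1.48% lower with a median of 0.58 over all start sites. After median centring 4 were higher and 2 lower (5.56% and 8.31% of all start sites). F11R, a tight-junction adhesion molecule, rose by 1.55 in CP70 (adjusted p = 8.49e-06), LSR, a tricellular-junction protein, by 1.48 (3.43e-06) and OCLN by 1.43 (1.96e-06). In the PEO pair 5 of 28 were higher and 9 lower in PEO4 (26.4% and 30.9% of all start sites), and after median centring 16 and 5 (51.9% and 15.6%). EHF, an ETS factor related to ELF3, was lower in PEO4 (-2.16, adjusted p = 2.62e-08) and was the 1 gene of the list called there. It was below 1 FPKM in PEO4 and passed the filter through PEO1 alone.

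Most repressors of the programme and mesenchymal genes were lower in PEA2. Of 7 genes 6 had a start-site window in the table, and ZEB2 did not. The highest mean was in PEO1 at 2 genes (SNAI2, CDH2), in PEO4 at 2 (SNAI1, TWIST1) and in PEA1 at 2 (ZEB1, VIM). Medians over the list were 2.22, 2.74, 5.62, 2.54, 5.40 and 5.54 FPKM from A2780 through CP70, PEA1, PEA2 and PEO1 to PEO4. All start sites had 2.03, 3.14, 3.18, 2.61, 7.27 and 7.17 FPKM. These genes were thus not lower in the PEO lines than in A2780 or CP70 by this median. In PEA2, 5 of the 6 were lower and 1 higher, with a median log2 fold change of -1.05, against -0.23 over all start-site windows, of which 35.7% were lower and 17.7% higher. VIM, the mesenchymal intermediate filament vimentin, fell from 10.2 ± 1.49 FPKM in PEA1 to 1.60 ± 0.1 in PEA2 (SD, n = 3 each, log2 fold change -2.58, adjusted p = 2.93e-28) and was called. ZEB1 was lower in PEA2 (-1.30, adjusted p = 4.33e-08), as were SNAI1 (-1.21, 3.75e-07), CDH2, which encodes N-cadherin (-0.90, 1.89e-04), and TWIST1 (-0.76, 0.00164). SNAI2 was higher (0.67, adjusted p = 0.00622). After median centring 0 were higher and 5 lower (11.6% and 62.3% of all start sites), and with quantile normalization and edgeR 1 and 5. In the PEO pair 4 were higher and 2 lower in PEO4 (26.4% and 30.9% of all start sites), and after median centring 4 and 0 (51.9% and 15.6%). SNAI1 was at 7.42 ± 0.368 FPKM in PEO1 and 22.7 ± 4.1 in PEO4 (log2 fold change 1.58, adjusted p = 3.04e-14). In the A2780 pair 2 of 6 were higher and 0 lower (43.9% and 1.48% of all start sites), and after centring 0 and 2 (5.56% and 8.31%).

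The lineage markers were read in the same way. Of PAX8, WT1, MUC16, SOX17, EPCAM and CDH1, MUC16 had no start-site window in the table. PAX8, a Mullerian transcription factor, had line means of 0.61 FPKM in A2780 and 0.90 in CP70, against 3.37 and 2.47 in the PEA lines and 7.90 and 5.60 in the PEO lines. WT1 ran from 1.10 in A2780 to 20.6 in PEO4 in the same order of lines, with 4.10 in PEA2. SOX17 did not exceed a mean of 2.33, in PEA2. In PEO1 and PEO4 it was at 0.721 and 0.661, below A2780 and CP70 (0.896 and 0.939). In A2780 and CP70 the 5 markers with a window, of which EPCAM and CDH1 mark epithelia in general, had means of 0.61 to 1.49 FPKM. Of the markers of other cells a culture could hold, PTPRC, CD3E, CDH5, COL1A1, PDGFRB and DCN had no start-site window in the table, PECAM1 had no protein-coding entry in the annotation, and CD68 had line means of 1.06 to 2.77 FPKM.

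Likeness across the 6 lines is a description over 6 points that share libraries and scaling. Among the members, Pearson's r of the line means of log2(FPKM + 0.1) was 1.00 for GRHL2 with CLDN3, 0.99 for EPCAM with both of these, for ESRP1 with GRHL2 and for CLDN4 with CLDN7, and lowest for ELF3 with CLDN4, at 0.70. Such values were common, since between 311 (CDH1) and 2085 (OVOL1) of 13748 genes had an r above 0.95 with a member. The 2 most alike start sites were NFATC2IP and ZNF135 for CDH1 (0.998 each), EIF2AK3 and RBBP6 for EPCAM (1.00 each), TRAPPC12 and RPRM for ESRP1 (0.998 and 0.995), and FAM217B and PPP1R3D for ESRP2 (0.997 each). They were CHEK2 and HSCB for GRHL2 (0.998 each), ADD3 and AGTRAP for OVOL1 (0.999 and 0.998), METTL7B and UIMC1 for ELF3 (0.999 and 0.998), and MORC4 and GRHL2 for CLDN3 (0.997 each). For CLDN4 they were H2AL3 and NPHP4 (0.995 and 0.993), and for CLDN7 KIAA0586 and RNF223 (1.00 and 0.998). Genes that start within the same window share its values and were ranked as separate genes. CHEK2 and HSCB had the same r (0.9982), as had FAM217B and PPP1R3D (0.9969), so each of these pairs may be a single window.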

How the data were processed

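ATAC-seq libraries of 6 ovarian cancer cell lines, 3 per line, were made by the authors with Tn5, sequenced as paired ends and aligned to hg19 with Bowtie2, keeping unique alignments. Duplicates (Picard), blacklisted regions and mitochondrial reads were removed, reads were counted in windows with featureCounts, and the rpkm function of edgeR gave the deposited values. Tool versions are not given in the sources used here, and no shift of read ends is described. The deposited FPKM values are those of windows of 1001 bp (start and end as in the file, both counted) every 900 bp, so they equal RPM, reads scaled to the library total alone, divided by 1.001. Whole reads were recovered for 100% of values (tolerance 0.001 reads). Every window of the table exceeds 2 FPKM in at least 2 libraries, so it is selected for signal. Window numbers matched GRCh37 chromosome lengths at 23 of 23 steps, and GENCODE release 44 on GRCh37 gave genes. Sequences were read from GRCh37. Some promoter sequences and the values of 1 listed gene are not reported here.

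The values were analysed as log2(FPKM + 0.1) with limma 3.58.1 (eBayes with trend) in R 4.3.3, fitted over all windows with Benjamini-Hochberg adjustment. The study weighted counts with voom, and the trend takes that place because FPKM were deposited. Pairs were tested over windows with a mean above 1 FPKM, and the 6 lines over all 89428 windows. edgeR 4.0.16 (quasi-likelihood, TMM) on recovered reads, other scalings, pseudocounts, filters, spans and left-out libraries were alternatives. The fits were tested on simulated data. Members, lists and motifs were chosen with earlier results of these data known. The text names the 10 start-site windows, up to 3 called windows per pair and direction, the 5 distal windows with the widest range, the genes of the fixed lists, and the 2 most similar start sites per member.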

Additional observations from a re-analysis of the deposited data

Results flagged for a closer look

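At 10 comparisons of pairs the change in a member window differed between 2 pairs by more than 2 on the log2(FPKM + 0.1) scale, with an adjusted p below 0.001 by limma over 18 libraries. For the PEA against the PEO pair they were 7.5% of the member windows, against 27.8% of all windows. The shares were 3.75% against 14.5% for the A2780 and PEA pairs, and 1.25% against 8.94% for the A2780 and PEO pairs. Members were thus called less often than the table as a whole. Against the PEO pair, the PEA pair changed more at the CDH1 intron windows 19 and 41.5 kb after the start (3.25 and 3.14, adjusted p = 2.66e-10 and 3.34e-08), where PEA2 rose by 2.81 and 2.27 and the PEO pair changed by -0.45 and -0.87. The largest such difference was at the EPCAM window 29.2 kb before the start (3.32, adjusted p = 3.69e-13), with changes of 2.05 and -1.27. At the CLDN4 window 2.6 kb after the start the difference was 2.15 (adjusted p = 6.87e-06), with changes of 1.97 and -0.18. It ran the other way at the CLDN4 window 5.5 kb before the start (-2.10, adjusted p = 3.98e-05), with changes of -0.01 and 2.09, and at the GRHL2 window 81.4 kb after the start (-2.03, adjusted p = 1.15e-04), with changes of -1.12 and 0.91.

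The A2780 pair changed less than the PEA pair at the same CDH1 windows, by -2.87 (adjusted p = 2.14e-08) and -2.12 (adjusted p = 8.95e-05), and at the ESRP1 start site by -2.35 (adjusted p = 2.61e-09). It differed from the PEO pair at the GRHL2 window 108.4 kb after the start by 2.19 (adjusted p = 2.58e-05), where PEO4 was lower than PEO1 by -1.76 on the log2 scale. The CDH1 window 41.5 kb after the start and the CLDN4 window 5.5 kb before it are in the table only through PEA2 and PEO4. The GRHL2 window 108.4 kb after the start is there only through PEO1. The GRHL2 window at 81.4 kb needed PEO4 to be there and the CLDN4 window at 2.6 kb needed PEO1. At both, a library of the other PEO line also exceeded 2 FPKM (2.63 and 2.35). Part of the difference at each of these windows was thus fixed by the choice of windows. Several changes were also of pairs below their filter of 1 FPKM, which this fit did not use. They were the PEO change at the CDH1 window at 41.5 kb and the PEA changes at the CLDN4 windows and the GRHL2 window at 81.4 kb. All changes of the A2780 pair here were below it too. At that CDH1 window PEO4 held 0.291, 0.432 and 0.149 FPKM, so its change rests on few reads.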

How the results depend on the processing

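The count of 4 called windows in the PEA pair became 1 after median centring, 1 after quantile normalization, 1 with a pseudocount of 0.5, 0 with 1, 2 with edgeR, 1 with a mean above 2 FPKM, and 22 (19 higher, 3 lower) with thresholds of 1 and 0.05. Leaving out 1 library gave 2 to 4. The count of 1 in the PEO pair became 0 with the 5 Mb bin median removed, with pseudocounts of 0.5 and 1 and with a mean above 2 FPKM, 2 with a span extended by 20 kb, and 7 (3 higher, 4 lower) with thresholds of 1 and 0.05. Leaving out 1 library gave 0 to 1. The 64 windows called between the 6 lines became 40 after median centring, 34 after quantile normalization, 27 with a pseudocount of 1 and 42 with edgeR. The causes were not tested. The other 94 alternative counts were within 1.5 times.

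Of the start-site changes, the direction turned in the A2780 pair for ESRP2 (-0.17 after median centring, -0.19 with edgeR) and ELF3 (-0.38, -0.39, and -0.36 after quantile normalization). In the PEO pair it turned for EPCAM (0.24 after median centring, 0.03 after quantile normalization, 0.10 with the bin median removed, 0.22 with edgeR), ELF3 (0.01 after median centring, 0.21 with the bin median removed), CLDN3 (-0.18) and CLDN7 (-0.26), the last both with the bin median removed. Of the rest 264 kept their side of the threshold, 16 lost it and 8 gained it. A replicate block left 4 windows called in the PEA pair and 64 between the 6 lines, and it moved no count by over 1.5 times. Libraries with the same number correlated at -0.41 to 0.04, so the numbers do not pair the libraries. The upper depth limit, chosen after seeing the data, and the stricter filter removed several start-site windows and gave no value for them. CLDN7 in the PEA pair had no value without any 1 library of PEA2, nor had ESRP2 in the A2780 pair without CP70 replicate 2. Removing the bin median means that the median log2 level of the windows of a 5 Mb bin was subtracted in each library and the library median added back. The 3 libraries per line and low levels in A2780, CP70 and PEA1 limit what can be detected there.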
